A study of Mus musculus with 11 samples.

Results

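Molecular chaperones of the heat shock families were followed in primary cultures of mouse embryonic palatal mesenchyme, cells that form the connective tissue and bone of the roof of the mouth. The set held 10 genes, Dnajb1, Hspa1a, Hspa1b, Hspa5, Hspa8, Hsp90aa1, Hsp90ab1, Hsph1, Hspb1 and Bag3. Each was found as the single row whose RefSeq accessions carry that gene's symbol, so 10 of the 23286 rows of the table were members. The genes were chosen by results that rest on these same FPKM values and intervals, in all 3 groups, so every level and fold below is a description without a test.

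The primary cells came from E13.5 palates, were grown in 10% serum and then kept overnight in 0.1% serum. The 3 groups, 11 libraries in all, were starved cells with no ligand (4 libraries), cells given 30 ng/mL PDGFA (4 libraries) and cells given 50 ng/mL FGF1 together with 1 µg/mL heparin (3 libraries). Ligands were applied for 1 h, and no matching time is given for the starved cells. PDGFA and FGF1 each activate their own family of tyrosine kinase receptors at the cell surface, and heparin helps FGF1 bind its receptor. No group received heparin alone, so effects of FGF1 and of heparin cannot be told apart, and the ligand doses differed. Starvation was shared by all groups, and the labels give no strain and leave unsaid whether the libraries of a group had separate litters or dishes behind them.

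Heat shock proteins help other proteins to fold and keep them from clumping. Hsp70 proteins bind exposed stretches of a client and are driven by J-domain partners, which bring clients and speed ATP hydrolysis, and by exchange factors, which release ADP. Hsp90 finishes the folding of clients such as kinases and steroid receptors, and small heat shock proteins hold unfolded clients without using ATP. Under heat or other protein stress the factor HSF1 binds repeats of the unit nGAAn in promoters, called heat shock elements, and raises the inducible members. The endoplasmic reticulum member Hspa5 answers instead to the unfolded protein response. Several of these genes are also made at high levels in unstressed cells.

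The table gives 1 value per group and row in FPKM, a count of sequenced fragments divided by transcript length and by library size, bounded by an interval. With 1 value per group the spread between libraries cannot be computed, and how the interval was built is not stated. Depth is unknown. In brackets after an FPKM stands its deposited interval, whose confidence level is not stated. A row was called higher or lower when the intervals of the compared groups lay wholly apart, provided that neither FPKM fell outside its interval. All 10 members passed the minimum of 1 FPKM in at least 1 group, as did 11702 rows of the table. Intervals were widest with PDGFA. The median half-width over the 10 genes was 48.5% of the FPKM there, 25.1% in starved cells and 33.2% with FGF1.

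The labelled cell type was set against marker genes. The mesenchymal genes Vim, Col1a2, Prrx1, Twist1 and Msx1 had 1982, 2025, 233, 60.1 and 59.8 FPKM in starved cells, while Col1a1 was listed at 0 with a failed estimate. Pdgfra, the receptor of PDGFA, had 3.87 FPKM and Fgfr1, a receptor of FGF1, 43.1. Osr2, also on the mesenchymal list, was low, with 3.73 FPKM in starved, 3.81 in PDGFA and 2.94 in FGF1 cells. The 4 epithelial markers summed to 0.341, 0.432 and 0.411 FPKM in starved, PDGFA and FGF1 cells. Of the blood markers, Ptprc had at most 0.0613 FPKM, while Hba-a1 and Hbb-bs were not analysed. The endothelial markers Pecam1 and Cdh5 had at most 0.0639 FPKM. The third of that list, Kdr, had 2.03, 2.60 and 1.97 in starved, PDGFA and FGF1 cells. The 5 skeletal muscle markers summed to 21.96 FPKM in starved, 106 in PDGFA and 29.2 in FGF1 cells, chiefly through Acta1, and 2 of them, Acta1 and Actc1, were called higher with PDGFA. The muscle determination gene Myod1 had at most 0.259. The neural marker Tubb3 had 36.99, 49.8 and 44.8 FPKM, with Elavl3 at most 0.00922 and Sox10 at most 0.593. In bulk RNA, fewer cells of a type and less RNA per cell cannot be told apart.

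The 10 genes spanned a wide range of levels in starved cells. Hsp90ab1, the constitutive cytosolic Hsp90, stood highest at 768 FPKM [524 to 1011], with only 39 of the 11702 rows above it. Hspa5, the Hsp70 of the endoplasmic reticulum, followed at 565 FPKM [404 to 727], and their intervals overlapped. Hspa8, the constitutive cytosolic Hsp70, had 155 FPKM [115 to 192], below Hspa5 and above the next gene with intervals apart on either side. Then came 5 genes between 30.6 and 50.8 FPKM, Hsp90aa1, Hspb1, Bag3, Dnajb1 and Hsph1, each overlapping its neighbour in that order. The inducible Hsp70 genes closed the list. Hspa1b had 10.3 FPKM [7.67 to 12.9] and Hspa1a 2.42 [1.63 to 3.19], each apart from the gene above it.

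With either ligand the first 3 and the last 2 places were held by the same genes, and the middle was reordered. Dnajb1 was 7th in starved cells, 5th with PDGFA and 4th with FGF1, but its interval overlapped that of its neighbour below in all 3 groups. The 10 genes together took up 0.441% of the summed FPKM of all rows in starved cells, 0.396% with PDGFA and 0.452% with FGF1. Their own sums were 1700, 1664 and 1873 FPKM, with Hsp90ab1 and Hspa5 the largest parts. The sums of all rows were 3.859e+05, 4.2e+05 and 4.143e+05 FPKM, so these shares also move with the other genes.

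**Figure D1:**
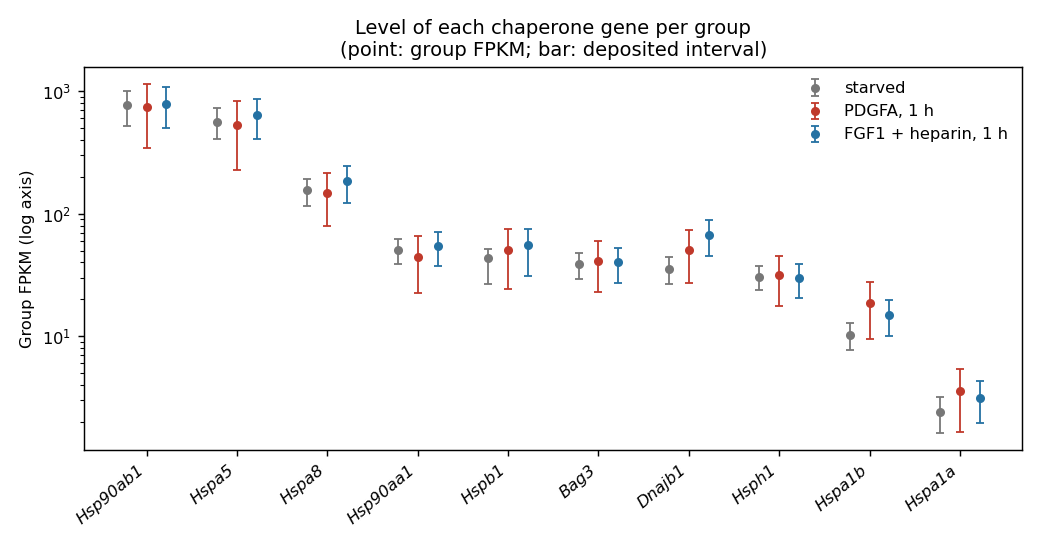
Group FPKM on a log axis for the 10 chaperone genes in starved, PDGFA and FGF1 cells, in order of the starved level; points are the authors' group values and bars their deposited intervals. Only Dnajb1 has 2 groups whose bars lie apart, starved cells at 35.5 FPKM and FGF1 cells at 67.3.

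Dnajb1 encodes the main cytosolic J-domain partner of Hsp70 under stress. It lies at chr8:83608175-83611903 of mm10. It had 35.5 FPKM [26.6 to 44.3] in starved cells, 50.3 [27.2 to 73.4] with PDGFA and 67.3 [45.2 to 89.2] with FGF1. The FGF1 interval began 0.841 FPKM above the end of the starved one, and the PDGFA interval overlapped both. The ratio was 1.895 for FGF1 against starved cells, and the ends of the intervals allow ratios from 1.02 to 3.35. For PDGFA it was 1.42, with 0.613 to 2.76 allowed. On the scale of log2(FPKM + 0.5), used for every log2 fold here, the FGF1 value was 0.91 and 70 of 11702 rows had a larger one. The call is narrow. It was lost with upper-quartile scaling, where the log2 fold was 0.84, with quantile normalization, where it was 0.81, and with a trend on GC content, length and level removed, where it was 0.83.

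Hspa1a and Hspa1b are neighbouring single-exon genes of near-identical stress-inducible Hsp70 proteins, at chr17:34969359-34972156 and chr17:34956429-34959238. Hspa1b had 10.3 FPKM [7.67 to 12.9] in starved cells, 18.5 [9.49 to 27.6] with PDGFA and 14.8 [9.96 to 19.6] with FGF1. Hspa1a had 2.42 [1.63 to 3.19], 3.54 [1.66 to 5.42] and 3.13 [1.95 to 4.30]. Each was highest with PDGFA and lowest in starved cells, and all of their intervals overlapped between groups. The Hspa1b ratio was 1.80 with PDGFA, the largest PDGFA ratio among the 10 genes, with 0.738 to 3.59 allowed, and 1.44 with FGF1, with 0.775 to 2.56 allowed.

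How far the split between these 2 rows can be read is limited by shared sequence. Of the 31-base words of the Hspa1a transcript 63.8% also occur in Hspa1b, and 67.6% of those of Hspa1b occur in Hspa1a. How reads matching both were assigned is not given in the sources used here, so each row alone is uncertain. Added together, the pair had 12.7 FPKM in starved cells, 22.1 with PDGFA and 17.9 with FGF1. The sums were 1.74 and 1.41 times the starved sum, and their added bounds overlapped. The testis-expressed relative Hspa1l, which shares 12.1% of the words of Hspa1a, had 0.795, 0.971 and 0.855 FPKM.

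Promoter sequence was available from RefSeq (GRCm38.p6, the assembly of mm10) for 7 of the 10 genes, in 9 entries; Hspa8, Hsp90aa1 and Hsp90ab1 had none. The last 200 bases before the start site are shown for Hspa1a, Hspa1b, Hspb1 and Dnajb1, the genes with the largest FGF1 ratios. These windows carry or lack an exact pair of the units that make up heat shock elements. They lie at chr17:34972157-34972356 (minus strand), chr17:34959239-34959438 (minus strand), chr5:135887719-135887918 (plus strand) and chr8:83607975-83608174 (plus strand). Capitals mark each match to a pair of units, GAANNTTC or TTCNNGAA, searched on both strands, where N is any base.
Hspa1a: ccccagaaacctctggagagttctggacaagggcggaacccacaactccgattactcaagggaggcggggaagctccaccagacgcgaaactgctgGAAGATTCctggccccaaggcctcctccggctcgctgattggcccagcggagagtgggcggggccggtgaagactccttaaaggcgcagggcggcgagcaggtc
Hspa1b: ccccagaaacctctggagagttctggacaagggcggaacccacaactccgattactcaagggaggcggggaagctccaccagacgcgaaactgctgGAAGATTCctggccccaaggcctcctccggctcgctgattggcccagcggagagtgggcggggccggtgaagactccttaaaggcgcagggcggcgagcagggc
Hspb1: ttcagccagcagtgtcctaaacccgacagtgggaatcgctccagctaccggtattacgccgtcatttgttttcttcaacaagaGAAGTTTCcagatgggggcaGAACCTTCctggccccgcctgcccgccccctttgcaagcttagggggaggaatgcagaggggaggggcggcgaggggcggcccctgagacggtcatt
Dnajb1: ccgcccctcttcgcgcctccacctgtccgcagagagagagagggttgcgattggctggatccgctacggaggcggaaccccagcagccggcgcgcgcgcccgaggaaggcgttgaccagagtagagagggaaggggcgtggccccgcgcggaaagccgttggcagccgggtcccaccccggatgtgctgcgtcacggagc

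The Hspa1a and Hspa1b windows had the same base at 199 of 200 positions, and each had its match, GAAGATTC, starting 104 bases before the start site. Hspb1 had 2 matches, GAAGTTTC and GAACCTTC, starting 117 and 97 bases before it. The Dnajb1 window had none. Over the 250 bases before the start, 4 of the 7 genes held a 2-unit match (Hspa1a, Hspa1b, Hspb1 and Hsph1), as did 12.8% of 32851 mouse promoters. A 3-unit match, GAANNTTCNNGAA or TTCNNGAANNTTC, which contains a 2-unit match, was found in 0 of the 7 and in 0.466% of all promoters. The CArG box, bound by the serum response factor, and the cAMP response element TGACGTCA were in 0 of the 7, and in 1.47% and 1.55% of all promoters. A match describes letters and is not a binding site, and its absence says only that these letters are not in this window.

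Hspa8 folds newly made proteins and uncoats clathrin vesicles. It lies at chr9:40801273-40805199 and had 155 FPKM [115 to 192] in starved cells, 146 [78.6 to 214] with PDGFA and 185 [122 to 246] with FGF1. It was highest with FGF1 and lowest with PDGFA, and all 3 intervals overlapped. The ratio was 1.19 with FGF1 and 0.942 with PDGFA. Processed pseudogenes share much of it, since 77.2% of its 31-base words occur in 13 of them, so its level is uncertain too. Per length, Hspa8 stood above the summed inducible pair 12.2-fold in starved cells, 6.63-fold with PDGFA and 10.3-fold with FGF1. The interval ends allow 7.15 to 20.7, 2.38 to 19.2 and 5.10 to 20.7, ranges that overlap.

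Hspa5, also known as BiP, binds proteins entering the endoplasmic reticulum and holds the stress sensors there inactive. It lies at chr2:34772090-34776529 and had 565 FPKM [404 to 727] in starved cells, 533 [229 to 838] with PDGFA and 635 [405 to 864] with FGF1. All 3 intervals overlapped, and the ratios were 0.943 with PDGFA and 1.12 with FGF1. No 31-base word of it occurred in another gene. Its promoter carried the ER stress element, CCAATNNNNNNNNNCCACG, 65 bases before the start at chr2:34772025-34772043 on the plus strand, the only match among the 7 genes. The element is shown as the counterpart of the heat shock elements above, with all of its bases in capitals.
Hspa5: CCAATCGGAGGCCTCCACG

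Of 32851 promoters 0.113% held that element in the 250 bases before the start.

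Hsph1 and Bag3 encode exchange factors of Hsp70, and BAG3 also steers clients to autophagy under mechanical and heat stress. Hsph1, at chr5:149616845-149636315, had 30.6 FPKM [23.7 to 37.4] in starved cells, 31.5 [17.6 to 45.5] with PDGFA and 29.7 [20.5 to 38.8] with FGF1. Bag3, at chr7:128523583-128546979, had 38.5 [29.3 to 47.8], 41.2 [22.8 to 59.7] and 40.2 [27.3 to 52.9]. These were among the smallest differences in the set, with ratios to starved cells between 0.971 and 1.07, and neither gene shared a 31-base word with another. The PDGFA ratio of Hsph1 fell below 1 in 2 alternative settings and that of Bag3 in 1, and the FGF1 ratio of Bag3 in 3. The wide intervals allow ratios from 0.470 to 2.04 for PDGFA and 0.550 to 1.81 for FGF1. Dnajb1 stood 1.16 times as high as Hsph1 per length in starved cells, 1.60 times with PDGFA and 2.27 times with FGF1. The interval ends allow 0.712 to 1.87, 0.598 to 4.17 and 1.16 to 4.34, which overlap.

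The Hsp90 pair divides into the inducible Hsp90aa1 and the constitutive Hsp90ab1. Hsp90aa1, at chr12:110691036-110696395, had 50.8 FPKM [38.9 to 62.6] in starved cells, 44.0 [22.7 to 65.2] with PDGFA and 54.2 [37.1 to 71.3] with FGF1. Hsp90ab1, at chr17:45567778-45573261, had 768 [524 to 1011], 744 [345 to 1144] and 789 [501 to 1076]. Both were lowest with PDGFA and highest with FGF1, with overlapping intervals throughout. The Hsp90aa1 ratio of 0.867 was the lowest with PDGFA in the set, and it was 1.07 with FGF1, while those of Hsp90ab1 were 0.969 and 1.03. Hsp90ab1 exceeded Hsp90aa1 15.1-fold per length in starved cells, 16.9-fold with PDGFA and 14.6-fold with FGF1. The interval ends allow 8.37 to 26.0, 5.29 to 50.4 and 7.02 to 29.0, ranges that overlap. The FGF1 ratio of Hsp90aa1 fell below 1 in 1 alternative setting and that of Hsp90ab1 in 3. Other genes share 62.9% of the 31-base words of Hsp90aa1, chiefly the pseudogenes Gm12346 and Gm5844, and 16.6% of those of Hsp90ab1, so Hsp90aa1 is uncertain.

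Hspb1, the mouse Hsp25, is a small heat shock protein that also binds actin and is phosphorylated downstream of p38 kinase. At chr5:135887919-135889563, it had 43.1 FPKM [26.8 to 51.3] in starved cells, 50.4 [24.3 to 74.5] with PDGFA and 55.2 [31.1 to 75.3] with FGF1. It was highest with FGF1, all intervals overlapped, and the ratios were 1.17 and 1.28. The pseudogene Hsp25-ps1 carries 61.7% of its 31-base words, so the value is uncertain. Hspb1 is also strongly expressed in muscle, whose markers were higher in PDGFA cells as given above. Their part in its value was not tested.

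Set against starved cells, PDGFA gave 0 calls among the 10 genes, where 0.308% of all rows were called. Of the 10 values 6 lay above the starved value and 4 below, and the median log2 fold was 0.07, from −0.20 for Hsp90aa1 to 0.82 for Hspa1b. The median of all rows was −0.0029, and 49.3% of them lay above 0. The members' median turned negative with upper-quartile scaling and quantile normalization, at −0.02 in each. With FGF1 1 of the 10 was called higher, Dnajb1, and 0 lower, where 0.538% of all rows were called higher and 0.0171% lower, 0.555% in all. Here 9 of the 10 values lay above the starved value, all but Hsph1, and the median was 0.21, beside 0.02 for all rows, of which 55.96% lay above 0. That count fell to 7 with upper-quartile scaling or the trend removed and to 6 with quantile normalization, and the median fell to 0.10 with the trend removed and to 0.067 with quantile normalization. Both comparisons use the same starved cells. The wider PDGFA intervals made a fold of a given size harder to call than with FGF1. Because the genes were chosen with these values known, nothing is read from how the shares differ.

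**Figure D2:**
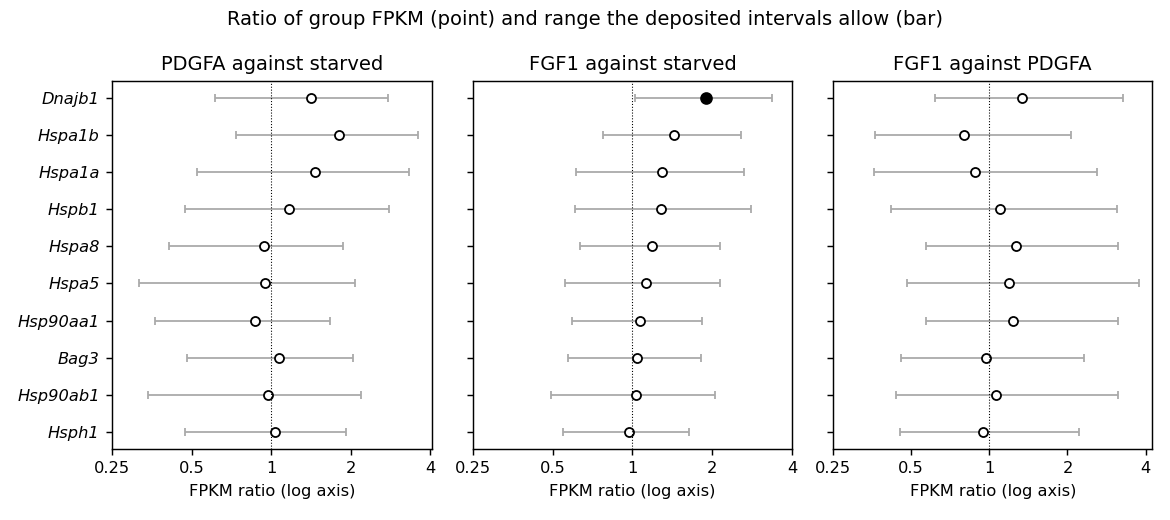
Ratio of group FPKM on a log axis for each gene in the 3 comparisons; points are the ratios, filled where the deposited intervals lie apart, and bars run between the smallest and largest ratio those intervals allow. The filled point is Dnajb1 with FGF1 against starved cells, at 1.895 with a lower end of 1.02, and every other bar crosses 1.

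Between the ligands 0 of the 10 genes were called, where 0.12% of all rows were, 0.0256% higher and 0.094% lower with FGF1. Dnajb1 had the largest log2 fold of FGF1 against PDGFA, 0.41, followed by Hspa8 at 0.34, Hsp90aa1 at 0.30 and Hspa5 at 0.25. Hspa1b lay lowest at −0.31, then Hspa1a at −0.16. The median was 0.11, beside 0.01 for all rows. The Dnajb1 ratio between the ligands was 1.34, with 0.616 to 3.28 allowed by the intervals, and the Hspa1b ratio 0.799, with 0.362 to 2.07 allowed. Neither difference between the ligands exceeded the deposited intervals. This order of folds moved when the trend on GC content, length and level was removed. Dnajb1 then had 0.43, Hspa8 0.29, Hspb1 0.28, Hsp90aa1 0.14 and Hspa5 0.11, while Hspa1a had 0.007 and Hspa1b −0.18. Of the 10 genes 8 then lay above 0, beside 6 as deposited.

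PDGFA folds in this table were larger at higher GC content of the transcript, and the members spread along that axis. Rows in the lowest GC octile had a median log2 fold of −0.19 and those in the highest 0.24. Hspa1b, Hspa1a and Hspb1, with 58.1%, 58.95% and 60.7% GC, fell in the highest octile, where the PDGFA folds were 0.82, 0.47 and 0.22 beside that median of 0.24. Hsp90aa1, with 43.7% GC, fell in the second octile, whose median was −0.14 beside its own −0.20. Dnajb1, with 52.7% GC, was in the fifth octile, with a fold of 0.50 beside a median of 0.03. With FGF1 the octile medians ran only from −0.0036 to 0.07, and Dnajb1 had 0.91 beside 0.02. With the trend removed the PDGFA folds were 0.63 for Hspa1b, 0.32 for Hspa1a, 0.40 for Dnajb1 and −0.08 for Hspb1, and the median of the 10 turned from 0.07 to −0.06. For FGF1 against PDGFA the octile medians fell from 0.17 in the lowest octile to −0.17 in the highest, where Hspa1a had −0.16 and Hspa1b −0.31. The part of GC content in these folds was not otherwise tested.

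**Figure D3:**
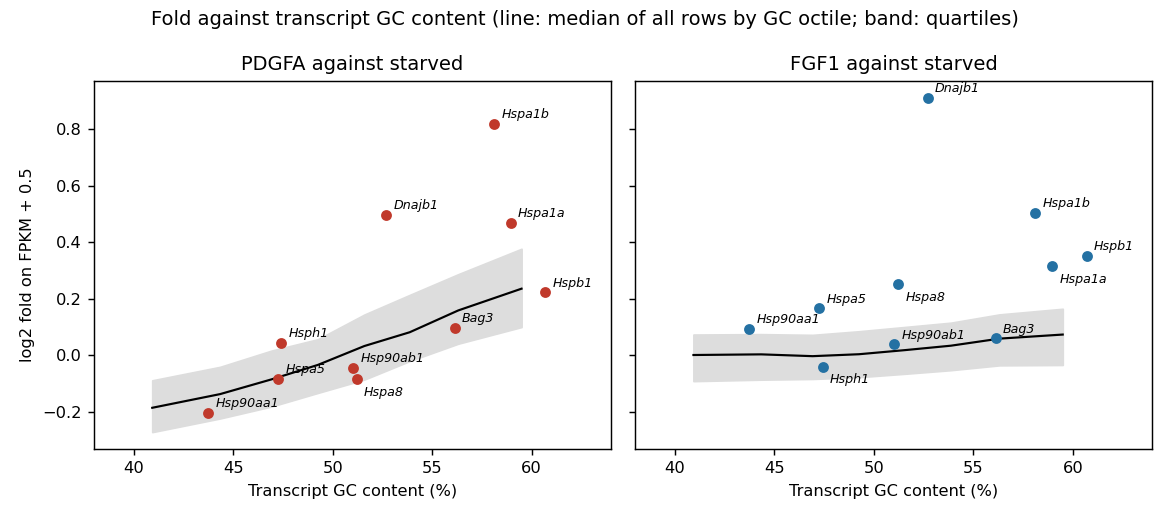
Log2 fold on FPKM + 0.5 against transcript GC content in percent for PDGFA and for FGF1 against starved cells; points are the 10 genes, the line is the median of all rows in each of 8 GC classes and the band their quartiles. With PDGFA the line climbs from −0.19 to 0.24 and Dnajb1, Hspa1a, Hspa1b and Hsph1 lie above the upper quartile of their class, while with FGF1 the line is nearly flat.

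Other chaperone genes and related genes were read from 9 lists, 98 different genes with at least 1 FPKM in a group. They include heat shock factors, mitochondrial proteases and regulators of the unfolded protein response. In each of the 3 comparisons 0 of the 98 were called. Of all rows 0.308% were called with PDGFA, 0.555% with FGF1 and 0.12% between the ligands. With shares this small, nothing is read from counts of 0 here or in the single lists below. Their median log2 fold was −0.0045 with PDGFA, with 49 of 98 above 0, and 0.07 with FGF1, with 73 of 98 above 0. Of all rows 49.3% lay above 0 with PDGFA and 55.96% with FGF1. The values ran from −0.35 to 0.65 with PDGFA and from −0.14 to 0.34 with FGF1. None of them reached the Dnajb1 value with FGF1 or the Hspa1b value with PDGFA. The values of these lists are as deposited. Upper-quartile scaling moved the median log2 fold of all rows by −0.066 with FGF1 and −0.088 with PDGFA. The FGF1 shift is close in size to the list median of 0.07, so counts above 0 depend on scaling. The rise of PDGFA folds with GC content was not removed from the values of these lists. Hspbp1, for example, has 59.9% GC and Hsp90b1 43.8%, and the part of GC content was not tested.

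Among regulators, Hsf1, the master factor of the heat shock response, had 24.98 FPKM [18.3 to 31.6] in starved cells, 29.96 [16.0 to 43.7] with PDGFA and 26.7 [17.6 to 35.3] with FGF1. Hsf2, a related factor active in development, had 10.2, 9.36 and 9.91 FPKM. Hsbp1, a small protein that binds HSF1, had 111, 108 and 122. Hsf4, the factor of the lens, had at most 0.509 FPKM and was not compared. So 3 of 5 genes in this list were compared and 0 were called.

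Of 15 compared J-domain genes 0 were called, with a median of −0.10 with PDGFA and 0.05 with FGF1. Dnajb4, a close relative of Dnajb1, had the largest FGF1 value, 0.34, from 25.7 FPKM [20.2 to 31.2] to 32.5 [22.1 to 43.0]. Dnajb12, an endoplasmic reticulum J-domain protein, had the largest PDGFA value, 0.41, from 23.4 to 31.3 FPKM. The intervals overlapped for each. Of 9 other Hsp70 genes 0 were called, with medians of 0.02 with PDGFA and 0.04 with FGF1, and the testis-enriched Hspa2 went from 6.36 FPKM [4.69 to 8.03] to 10.2 [4.47 to 16.1] with PDGFA and 7.04 with FGF1. Of 9 exchange factors and BAG genes 0 were called, with medians of 0.19 with PDGFA and 0.10 with FGF1. Hspbp1, an exchange factor, had 20.9, 31.1 and 23.1 FPKM, and Bag2, which inhibits the ubiquitin ligase CHIP, 63.6, 90.5 and 75.3.

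Of 16 Hsp90 paralogs and cochaperones 0 were called, with medians of −0.01 with PDGFA and 0.06 with FGF1. Unc45a, a myosin chaperone, had 25.9, 36.0 and 30.4 FPKM. Fkbp4, an immunophilin of steroid receptor complexes, had 72.9, 92.6 and 77.96. Of 5 compared genes in the small heat shock protein list 0 were called, with medians of 0.33 with PDGFA and 0.07 with FGF1. Cryab, the alpha-B crystallin, which is abundant in lens and muscle, had 161 FPKM [110 to 187], 203 [103 to 303] and 179 [110 to 236]. Its relative Hspb6 had 23.4, 32.3 and 23.0. Hspb11, listed here by its symbol, had 28.1, 22.2 and 29.6. Its starved value lay outside its own interval [13.4 to 27.0], so it could not be called against starved cells. Hspb8, added after its values were seen, had 20.3, 20.2 and 22.4. Cryab, Hspb6 and Hspb8 are all expressed in muscle, and the first pair was highest in PDGFA cells, where the muscle markers were higher, while Hspb8 was lowest there. The part of the muscle markers was not tested.

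In mitochondria, the chaperonin genes Hspd1 and Hspe1 had 72.4 and 128 FPKM in starved cells, 63.1 and 100.2 with PDGFA, and 73.9 and 135 with FGF1. Of the 8 genes in that list 0 were called, with medians of 0.02 with PDGFA and 0.09 with FGF1. Of 14 genes of the cytosolic chaperonin TRiC and of prefoldin 0 were called, with 9 of 14 above 0 and a median of 0.07 with PDGFA, and 13 of 14 above 0 and a median of 0.11 with FGF1, where 55.96% of all rows lay above 0. Pfdn2, a prefoldin subunit, had the largest of those values, 0.32, from 65.1 to 81.5 FPKM. Of 26 endoplasmic reticulum chaperone and unfolded protein response genes 0 were called, with medians of −0.08 with PDGFA and 0.03 with FGF1. Hsp90b1, the Hsp90 of that compartment, had 507, 421 and 496 FPKM, and Serpinh1, the collagen chaperone HSP47, 1442 [919 to 1966], 1992 [503 to 3483] and 1612 [956 to 2268]. Sdf2l1, a partner of Hspa5, had 12.3, 18.96 and 12.6.

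For scale, 10 growth factor response genes (Fos, Fosb, Egr1, Egr2, Junb, Atf3, Nr4a1, Ier2, Ier3 and Dusp1) had log2 folds from 0.86 to 3.79 with PDGFA, 7 of them called, and from 1.32 to 3.64 with FGF1, all 10 called. With the wider PDGFA intervals, Fos and Ier2 were not called at ratios of 2.57 and 2.55. The Dnajb1 value with FGF1 lay below the lowest FGF1 value of these genes.

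**Figure D4:**
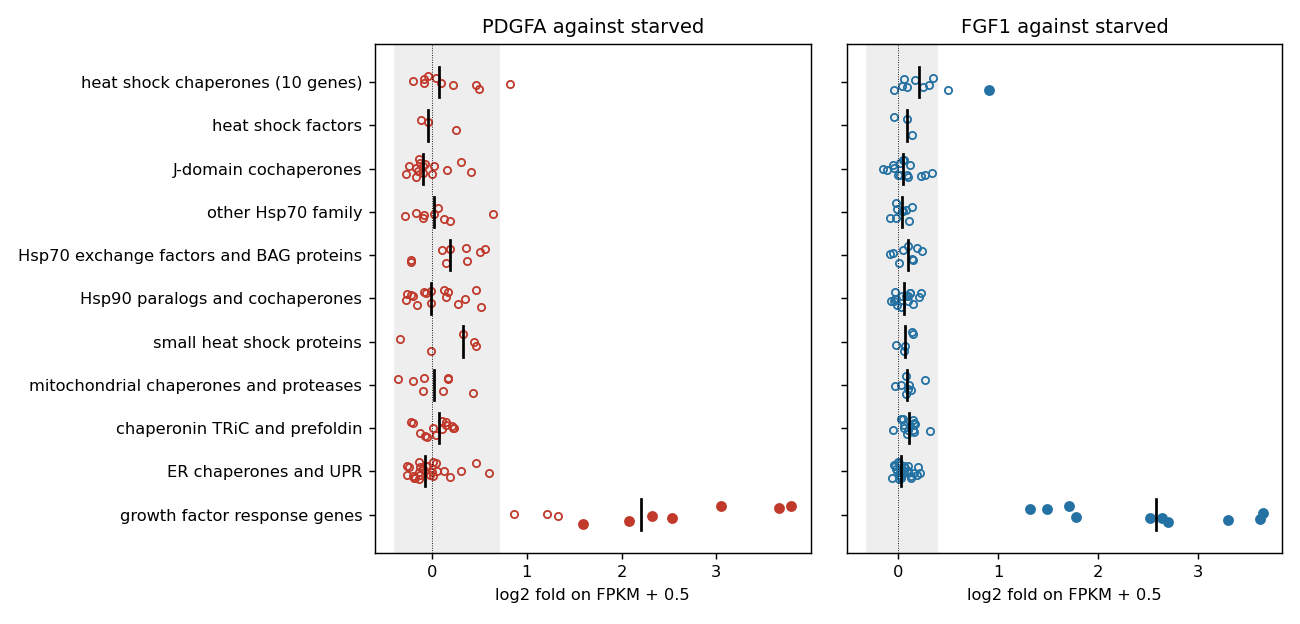
Log2 fold on FPKM + 0.5 against starved cells for the 10 chaperone genes, 9 lists of other chaperone and related genes and 10 growth factor response genes, for PDGFA and FGF1; each circle is a gene, filled where intervals lie apart, black bars are list medians and the grey band holds the middle 95% of all rows. Of the chaperone genes only Dnajb1 with FGF1 is filled, at 0.91.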

How the data were processed

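Libraries of polyA RNA came from starved, PDGFA and FGF1 cells, per the labels' protocols. CASAVA, TopHat and Cuffdiff with build mm10 are named in the submitters' processing notes, while the sources used here give no versions, settings, annotation or handling of multiply matching reads. The authors deposited FPKM, 1 value per group, and the file headers name its interval ends, so depth is unknown, and FPKM shifts when other genes change.

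Rows were named by RefSeq accession with the GRCm38.p6 gene table (22992 of 23286). Log2 folds used FPKM + 0.5, which understates changes of low genes. Calls needed intervals apart; the rule ran over all rows of at least 1 FPKM. GC content, length and shared 31-base words came from GENCODE M21 transcripts (GC for 98.9% of compared rows). The trend was a cubic robust regression on GC content, log2 length and log2 level over 11466 rows of at least 200 nt. The 10 genes, lists and rules were chosen with earlier results of these data known. Named genes were all members, any called list gene, and the genes with the largest ligand folds in each list, up to 4 a list, of which examples are printed. Hsf4, Hspa1l and Hspb8 were added outside that rule. Dnaja1, Dnajb5, Stub1 and Pdia4 were not analysed here. Work used Python 3.11.15, numpy 2.4.6, pandas 2.3.3, statsmodels 0.14.6 and matplotlib 3.10.9.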

Additional observations from a re-analysis of the deposited data

How the results depend on the processing

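No paired analysis was possible because the table holds 1 value per group and no value per library; leave-one-out values could not be had for the same reason. The number of chaperone genes called with FGF1 against starved cells fell from 1 to 0 with upper-quartile scaling, with quantile normalization and with the GC, length and level trend removed. The intervals as deposited lay 0.841 FPKM apart. With upper-quartile scaling the FGF1 interval of Dnajb1 began at 44.7 FPKM, below the end of the starved one at 46.1. These ends were 43.9 and 46.3 with quantile normalization, and 42.7 and 44.3 with the trend removed. What lies behind the differences in scale and trend was not tested. The members' median log2 fold turned from 0.071 to −0.056 for PDGFA with the trend removed, to −0.022 with upper-quartile scaling and to −0.024 with quantile normalization, and went from 0.21 to 0.10 for FGF1 with the trend removed and to 0.067 with quantile normalization. Between the ligands, all rows called went from 14 to 8 with a minimum of 5 FPKM, where fewer rows were compared, and median-of-ratios scaling changed the split of 3 higher and 11 lower to 1 and 11. Median-of-ratios scaling and adding Hspa1a to Hspa1b kept each count of members called. Pseudocounts do not enter a call. The signs of Hsph1, Hspb1 and Bag3 with PDGFA, of Hsp90aa1, Hsp90ab1 and Bag3 with FGF1, and of Hspa1a and Bag3 between ligands flipped under at least 1 setting, while none of these was called.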
